A study of Mus musculus with 12 samples.

Results

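A set of 10 genes of the Toll-like receptor and NF-kB pathway was followed in mouse liver: Tlr2, Tlr4, Cd14, Ly96, Myd88, Nfkb1, Nfkb2, Relb, Nfkbia and Tnfaip3. They were taken by gene symbol from a deposited table of 15846 genes. All 10 were in the table and all 10 passed the filter on low counts that left 14736 genes for testing. RNA was sequenced from whole livers of 12 C57BL/6 mice aged 5 months, 3 in each of 4 groups. The groups were Shp Hep-/- mice (KO) on HFCF, WT mice on HFCF, KO mice on chow and WT mice on chow. The Shp gene (Nr0b2) codes for a nuclear receptor without a known ligand that represses transcription, and the genotype name places its deletion in hepatocytes. The Cre driver is not given in the sources used here, and the labels do not spell out HFCF.

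Toll-like receptors are membrane proteins that bind microbial products and molecules released by damaged cells. TLR4 binds bacterial lipopolysaccharide together with LY96 (MD-2), to which CD14 delivers it, and most Toll-like receptors signal through the adaptor MYD88. The signal ends in the removal of IkB inhibitors such as NFKBIA, which frees NF-kB dimers to enter the nucleus and to activate genes that include Nfkbia and Tnfaip3, the pathway's own inhibitors. In liver these genes are active in Kupffer cells, the resident macrophages, and also in recruited monocytes, endothelial cells, stellate cells and hepatocytes. RNA from whole liver cannot tell fewer cells of a type from less RNA per cell.

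The libraries held 13967116 to 18324134 counts. Nr0b2 stood at 0.21 to 0.509 CPM in KO HFCF livers and 47.6 to 53.4 CPM in WT HFCF livers, and at 0.552 to 1.01 CPM in KO chow livers and 22.4 to 49.3 CPM in WT chow livers, so the genotype labels held in all 12 livers. CPM relates each count to its library's size, scaled with TMM factors. WT HFCF replicate 1 stood apart from the other WT HFCF livers: its chi-square per degree of freedom was 32.2 against replicate 2 and 34.4 against replicate 3, while those 2 livers differed from each other by 11.2. It was the highest liver of its group for 7 of the 10 genes. Fold changes of the 10 genes that rest on the WT HFCF group are therefore given with and without it. The sum of 6 Kupffer cell markers was 566 to 598 CPM in KO HFCF livers and 221 to 470 CPM in WT HFCF livers, and 373 to 381 CPM in KO chow livers and 236 to 266 CPM in WT chow livers. WT HFCF replicate 1 was the liver at 470 CPM. Liver identity was checked with hepatocyte markers, of which 6 of 8 were analysed. Their sum was 46100 to 46900 CPM in KO HFCF livers and 38300 to 43300 CPM in WT HFCF livers. In chow livers it was 43900 to 50800 CPM in KO and 48100 to 49600 CPM in WT. The WT HFCF livers thus lay below all the others. With the diet in WT livers 2 of the 6 markers fell, where 5.9% of all tested genes fell.

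The stretches of promoter sequence that hold the DNA motif of NF-kB are shown for the genes that encode the pathway's feedback inhibitors, for Nfkb2 and for Tlr2, since these genes are themselves described as NF-kB targets. Cd14 was left out of the promoter search, so the counts of matches do not cover it. RefSeq (GRCm38.p6) promoter windows were used for 5 of the 10 genes, namely Tlr2, Myd88, Nfkb2, Nfkbia and Tnfaip3. The 250 bases before each start were searched on both strands for the NF-kB consensus. It was found in 6 of their 8 windows, which belong to 4 of the 5 genes, and in 3.9% of all 32841 windows of that length. Of the 6, 3 are windows of Nfkb2, some of which overlap. Several of these genes are described NF-kB targets, so the 2 shares are no test of enrichment. The Myd88 window and a second window of Tnfaip3 held no match. Sequences run 5′ to 3′ on the gene's strand, with the match in capitals, and the base before the start is -1. Where an annotated transcript or the deposited gene span covers the window, only 30 bases round each match are shown.
Nfkbia, chr12:55492648-55492897, minus strand, bases -250 to -1: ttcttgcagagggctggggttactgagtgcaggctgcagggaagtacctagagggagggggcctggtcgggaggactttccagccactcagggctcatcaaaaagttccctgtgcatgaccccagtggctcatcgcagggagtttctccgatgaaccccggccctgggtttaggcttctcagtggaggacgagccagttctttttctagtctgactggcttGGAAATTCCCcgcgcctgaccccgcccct
Tnfaip3, chr10:19015516-19015545, minus strand, bases -135 to -106: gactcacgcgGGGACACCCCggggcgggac
Tnfaip3, chr10:19015411-19015440, minus strand, bases -30 to -1: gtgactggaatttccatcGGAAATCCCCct
Nfkb2, chr19:46304689-46304718, plus strand, bases -48 to -19: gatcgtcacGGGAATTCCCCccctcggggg
Nfkb2, chr19:46304707-46304736, plus strand, bases -30 to -1: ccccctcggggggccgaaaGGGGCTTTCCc
Tlr2, chr3:83841761-83841790, minus strand, bases -182 to -153: aggacacctGGGGAATTCCCacacggagcc
In Nfkb2 and Tlr2 the longer runs of capitals are overlapping matches, of which 1 per gene reads on both strands. The further RefSeq starts of Nfkb2 had 1 match each and are not shown. A match describes the letters and is no measurement of binding.

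Levels of different genes were compared per length, with the deposited FPKM values (± SD, n = 3). Nfkbia had the highest level in every group, at 30.9 ± 6.97 FPKM in KO HFCF, 31.6 ± 3.39 FPKM in WT HFCF, 43.1 ± 8.32 FPKM in KO chow and 50.7 ± 5.15 FPKM in WT chow livers. Nfkb1 and Myd88 came next in every group, between 5.33 and 6.97 FPKM, ahead of Ly96. Their order exchanged within these small differences: Nfkb1 averaged 6.97 ± 0.38 FPKM and Myd88 5.79 ± 0.231 FPKM in KO HFCF livers, while in WT chow livers Nfkb1 averaged 5.33 ± 0.209 FPKM and Myd88 6.44 ± 0.478 FPKM. Tlr2 averaged 2.84 ± 0.48 FPKM in KO HFCF livers, and 1.3 ± 0.586 FPKM in WT HFCF livers. Tlr4 averaged 1.74 ± 0.175 FPKM in KO HFCF livers and 1.58 ± 0.459 FPKM in WT HFCF livers, and 1.8 ± 0.115 FPKM in KO chow livers and 1.43 ± 0.202 FPKM in WT chow livers. Thus Tlr2 lay above Tlr4 in both KO groups and below it in both WT groups by mean FPKM, although the ranges of mean ± SD of the pair overlapped in both WT groups. Relb and Tnfaip3 were the lowest, from 0.46 ± 0.0476 FPKM for Relb in WT chow livers to 1.73 ± 0.122 FPKM for Tnfaip3 in KO chow livers. The neighbours Tlr2, Nfkb2 and Cd14 in KO HFCF livers, at 2.84 ± 0.48, 2.64 ± 0.295 and 2.47 ± 0.324 FPKM, did not differ beyond their spread.

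KO livers were first compared with WT livers on each diet, which shows how the pathway's genes stood when hepatocytes lacked Shp. Tlr2, Nfkb1 and Tnfaip3 rose in KO livers on HFCF and also on chow. No gene of the 10 fell on either diet. On HFCF 3 of 10 genes rose, where 10.6% of all tested genes rose and 8.52% fell, and their median log2 fold change was 0.36, against 0.02 for all tested genes. On chow 3 of 10 rose, where 9.72% of all tested genes rose and 5.82% fell, and the median was 0.36, against 0.00 for all tested genes. Without WT chow replicate 3, 1 of the 10, Tlr2, was called on chow. Each fold change comes from edgeR's quasi-likelihood test on all 12 libraries, with ± as its standard error and p adjusted over all tested genes. On chow the KO livers lay wholly above the WT livers for 7 of the 10 genes, which held for 19.4% of all tested genes. On HFCF they did so for 4 of 10, against 18.5% of all tested genes.

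**Figure D1:**
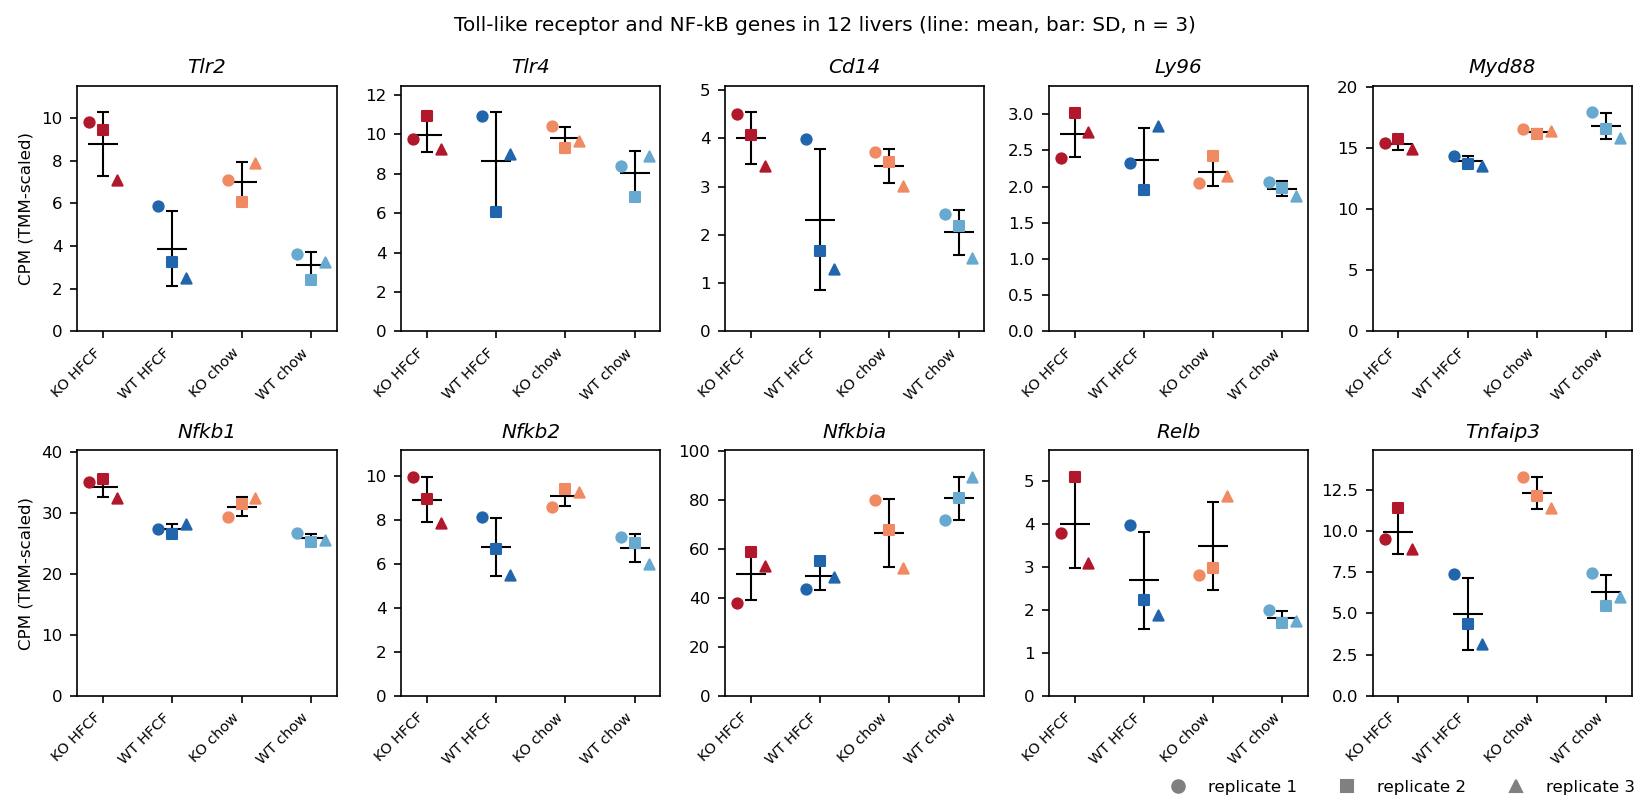
TMM-scaled CPM (vertical axes, linear, from 0) of the 10 genes in each liver of the KO HFCF, WT HFCF, KO chow and WT chow groups; symbols are replicates, the line is the mean and the bar the SD of 3 livers. The 3 KO livers lie above the 3 WT livers on each diet for Tlr2, Nfkb1 and Tnfaip3, while Nfkbia is highest on chow.

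Tlr2, the receptor for bacterial lipoproteins, was 9.81, 9.44 and 7.09 CPM in KO HFCF livers and 5.86, 3.27 and 2.51 CPM in WT HFCF livers. The chow values were 7.09, 6.07 and 7.88 CPM in KO livers and 3.65, 2.41 and 3.25 CPM in WT livers. All 6 KO livers lay above all 6 WT livers. The log2 fold change was 1.15 ± 0.25 on HFCF (edgeR adjusted p = 0.00601) and 1.18 ± 0.27 on chow (edgeR adjusted p = 0.0103), that is 2.23-fold and 2.26-fold. The call held in all 20 alternative analyses on both diets, and without WT HFCF replicate 1 the HFCF value was 1.60 ± 0.22. Tlr2 (ENSMUSG00000027995) lies on mm10 chromosome 3, from 83836273 to 83841767, on the minus strand.

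Tlr4 (ENSMUSG00000039005, chromosome 4, 66827584 to 66930284, plus strand), the lipopolysaccharide receptor, was 9.74, 10.9 and 9.23 CPM in KO HFCF livers and 10.9, 6.05 and 9.02 CPM in WT HFCF livers. On chow it was 10.4, 9.32 and 9.64 CPM in KO livers and 8.37, 6.8 and 8.92 CPM in WT livers. The groups overlapped on HFCF, where WT replicate 1 matched the highest KO liver, and on chow the KO livers lay just above the WT livers. The difference did not pass the test on HFCF (0.19 ± 0.18, 95% interval -0.19 to 0.57, edgeR adjusted p = 0.505) or on chow (0.29 ± 0.18, 95% interval -0.10 to 0.67, edgeR adjusted p = 0.3). The HFCF value without WT HFCF replicate 1 was 0.39 ± 0.17 (95% interval 0.03 to 0.76) and was not called either (edgeR adjusted p = 0.137).

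Cd14 (ENSMUSG00000051439), which hands lipopolysaccharide to the TLR4 complex, was 4.51, 4.06 and 3.43 CPM in KO HFCF livers and 3.98, 1.67 and 1.29 CPM in WT HFCF livers. On chow it was 3.71, 3.52 and 3.02 CPM in KO livers and 2.43, 2.19 and 1.52 CPM in WT livers. WT HFCF replicate 1 sat among the KO livers, while the other WT livers on both diets lay below every KO liver. The log2 fold change was 0.75 ± 0.32 on HFCF (edgeR adjusted p = 0.12) and 0.74 ± 0.33 on chow (edgeR adjusted p = 0.151). Without WT HFCF replicate 1 it was 1.43 ± 0.25 on HFCF and passed the test (edgeR adjusted p = 0.00127). Ly96 (ENSMUSG00000025779, chromosome 1, 16688456 to 16709605, plus strand), the TLR4 partner MD-2, was 2.4 to 3.01 CPM in KO HFCF and 1.95 to 2.83 CPM in WT HFCF livers, and 2.05 to 2.42 CPM in KO chow and 1.87 to 2.07 CPM in WT chow livers. Its groups overlapped on both diets, and the log2 fold change was 0.20 ± 0.18 on HFCF (edgeR adjusted p = 0.51) and 0.15 ± 0.20 on chow (edgeR adjusted p = 0.667). The Ly96 value on HFCF without WT HFCF replicate 1 was 0.18 ± 0.21 (edgeR adjusted p = 0.631).

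Myd88 (ENSMUSG00000032508, chromosome 9, 119335934 to 119341411, minus strand), the shared adaptor, varied little among livers. It was 15.4, 15.7 and 14.9 CPM in KO HFCF livers and 14.3, 13.7 and 13.5 CPM in WT HFCF livers, and 16.5, 16.1 and 16.4 CPM in KO chow livers and 17.9, 16.5 and 15.8 CPM in WT chow livers. The HFCF groups did not overlap, and the chow groups did. Neither difference passed the test: the log2 fold change was 0.15 ± 0.08 on HFCF (95% interval -0.03 to 0.32, edgeR adjusted p = 0.254) and -0.04 ± 0.08 on chow (95% interval -0.21 to 0.14, edgeR adjusted p = 0.807). The HFCF value was 0.17 ± 0.09 without WT HFCF replicate 1 (edgeR adjusted p = 0.249).

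Nfkb1 (ENSMUSG00000028163, chromosome 3, 135584655 to 135691547, minus strand), which encodes the p105 precursor of the p50 subunit, was 35.1, 35.5 and 32.5 CPM in KO HFCF livers and 27.3, 26.5 and 28.2 CPM in WT HFCF livers. Chow livers held 29.3, 31.4 and 32.4 CPM in KO livers and 26.7, 25.3 and 25.6 CPM in WT livers. All 6 KO livers lay above all 6 WT livers, and the spread within each group was small. The fold was 1.26 on HFCF (log2 0.33 ± 0.07, edgeR adjusted p = 0.00583) and 1.2 on chow (log2 0.26 ± 0.07, edgeR adjusted p = 0.0258). The HFCF call held in all 20 alternatives, with 0.33 ± 0.08 without WT HFCF replicate 1. The chow call was lost without WT chow replicate 1 (adjusted p = 0.0507), 2 (0.0854) or 3 (0.0851), without KO chow replicate 2 (0.074) or 3 (0.0841), without KO HFCF replicate 1 (0.0538) and with DESeq2 (0.0754), each time with a higher level in KO.

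Nfkb2 (ENSMUSG00000025225, chromosome 19, 46304737 to 46312090, plus strand), which encodes the p100 precursor of p52 in the noncanonical branch, was 9.96, 8.95 and 7.88 CPM in KO HFCF livers and 8.13, 6.68 and 5.48 CPM in WT HFCF livers. The chow livers held 8.58, 9.39 and 9.26 CPM in KO livers and 7.22, 6.94 and 6.01 CPM in WT livers. The groups met on HFCF through WT replicate 1 and were apart on chow. The log2 fold change was 0.39 ± 0.15 on HFCF (edgeR adjusted p = 0.083) and 0.43 ± 0.15 on chow (edgeR adjusted p = 0.0665). Without WT HFCF replicate 1 it was 0.55 ± 0.15 on HFCF and passed the test (edgeR adjusted p = 0.0211).

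Relb (ENSMUSG00000002983, chromosome 7, 19606217 to 19629438, minus strand), the partner of p52, was 3.78, 5.1 and 3.09 CPM in KO HFCF livers and 3.98, 2.23 and 1.87 CPM in WT HFCF livers. On chow it was 2.82, 2.97 and 4.66 CPM in KO livers and 2, 1.7 and 1.73 CPM in WT livers. WT HFCF replicate 1 again sat among the KO livers, and on chow the groups did not overlap. The log2 fold change was 0.54 ± 0.29 on HFCF (edgeR adjusted p = 0.219) and 0.94 ± 0.31 on chow (edgeR adjusted p = 0.0561). Without WT HFCF replicate 1 the HFCF value was 0.95 ± 0.28 and passed the test (edgeR adjusted p = 0.0317).

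Tnfaip3 (ENSMUSG00000019850, chromosome 10, 19000910 to 19015657, minus strand) encodes A20, a ubiquitin-editing enzyme that shuts the signal off. It was 9.52, 11.4 and 8.89 CPM in KO HFCF livers and 7.39, 4.38 and 3.16 CPM in WT HFCF livers. Its chow values were 13.3, 12.1 and 11.4 CPM in KO livers and 7.44, 5.45 and 6.01 CPM in WT livers. Every KO liver lay above every WT liver. The fold was 1.97 on HFCF (log2 0.98 ± 0.23, edgeR adjusted p = 0.00929) and 1.95 on chow (log2 0.96 ± 0.23, edgeR adjusted p = 0.0119). The HFCF call held in all 20 alternatives and the value was 1.40 ± 0.19 without WT HFCF replicate 1. The chow call was lost without WT chow replicate 3 (edgeR adjusted p = 0.0512).

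Nfkbia (ENSMUSG00000021025, chromosome 12, 55489411 to 55492647, minus strand) encodes IkB-alpha, which holds NF-kB in the cytoplasm. It was 38.1, 58.7 and 53 CPM in KO HFCF livers and 43.7, 55.1 and 48.7 CPM in WT HFCF livers. Its chow values were 80, 67.8 and 52.4 CPM in KO livers and 72.1, 81 and 89.7 CPM in WT livers. The genotypes overlapped on both diets. The log2 fold change was 0.03 ± 0.17 on HFCF (95% interval -0.33 to 0.38, edgeR adjusted p = 0.936) and -0.28 ± 0.16 on chow (95% interval -0.63 to 0.07, edgeR adjusted p = 0.273). With WT HFCF replicate 1 left out, the HFCF value was -0.05 ± 0.18 (edgeR adjusted p = 0.887). Of the pair of feedback inhibitors, Tnfaip3 was therefore called between genotypes and Nfkbia was not, and the difference between them was not tested.

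**Figure D2:**
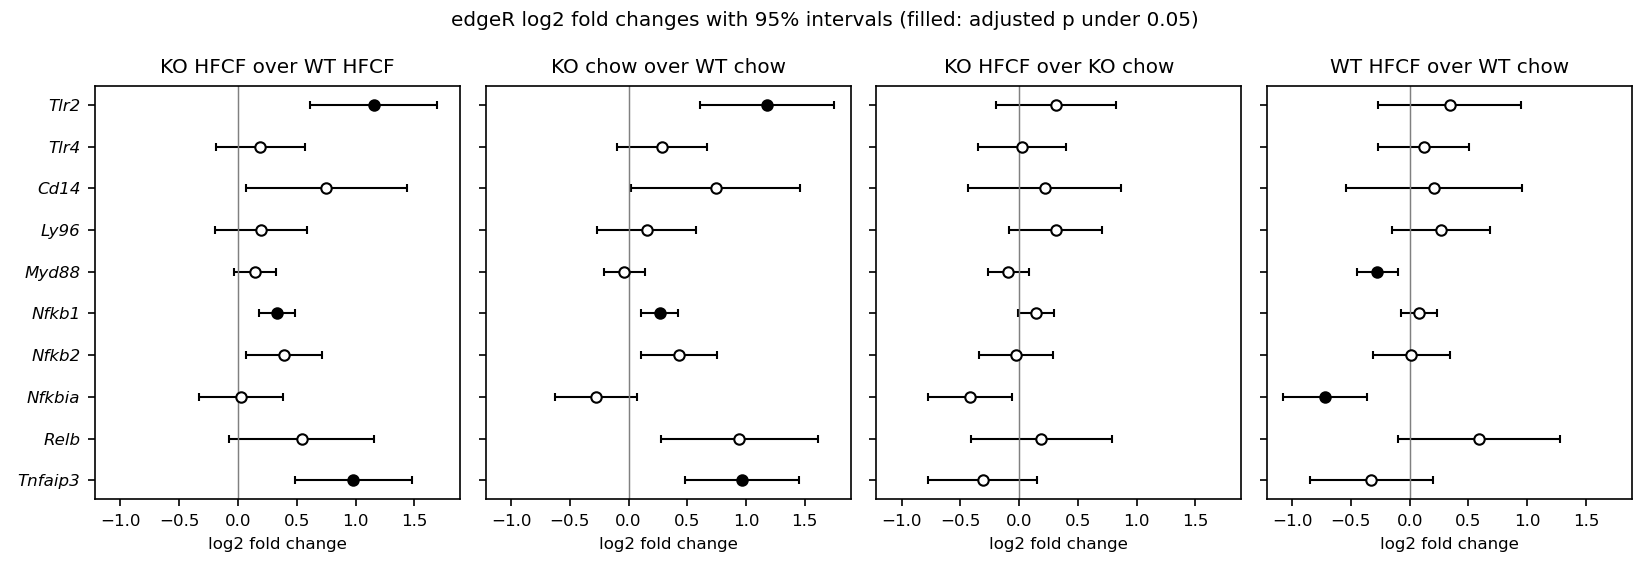
Log2 fold changes of the 10 genes (horizontal axes) in the 4 comparisons named above the panels, with 95% intervals from edgeR; filled points have an adjusted p under 0.05. Tlr2, Nfkb1 and Tnfaip3 are filled in both genotype panels, no gene is filled for the diet in KO, and Nfkbia and Myd88 are filled below 0 for the diet in WT.

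Without WT HFCF replicate 1, 6 of the 10 genes rose in KO HFCF livers against the other 2 WT HFCF livers: Tlr2, Cd14, Nfkb1, Nfkb2, Relb and Tnfaip3. In that fit 10.6% of all tested genes rose. That liver was the highest of its group for 7 of the 10 genes, so leaving it out lowers their WT HFCF mean by construction. On chow, a fit without that liver also called Cd14 (edgeR adjusted p = 0.0253), Nfkb2 (0.0354) and Relb (0.0221), for which it changes only the shared estimate of spread and the genes kept. In WT HFCF replicate 1 the summed markers of monocytes and macrophages stood at 466 CPM, against 278 and 234 CPM in replicates 2 and 3 of that group. The part of macrophage content in these values was not tested.

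**Figure D3:**
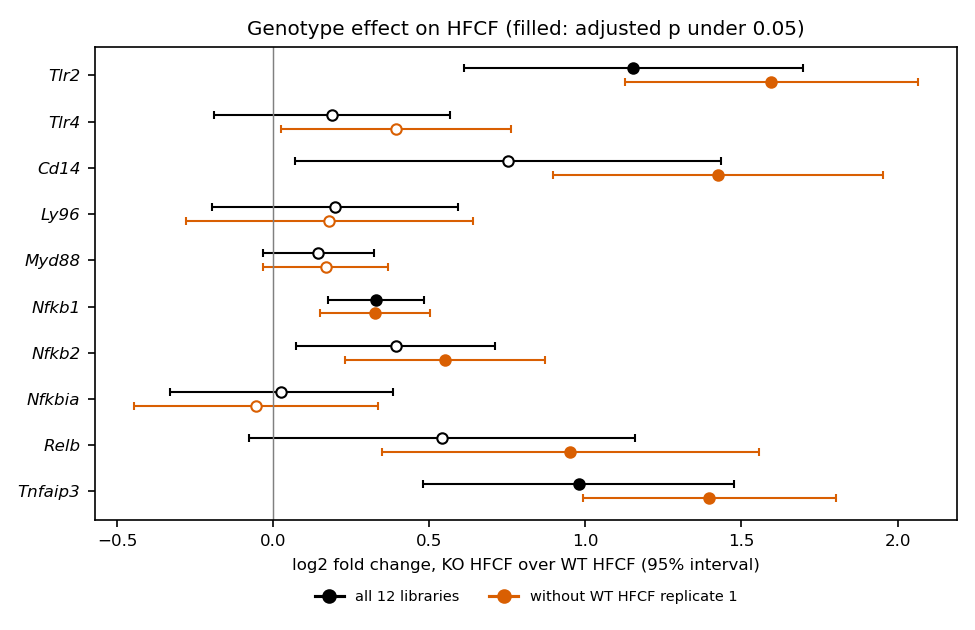
Log2 fold change of KO HFCF over WT HFCF livers (horizontal axis) with its 95% interval from edgeR, from all 12 libraries and without WT HFCF replicate 1; filled points have an adjusted p under 0.05. Cd14, Nfkb2 and Relb are filled only without that liver, and Tlr4, Ly96, Myd88 and Nfkbia are open in both fits.

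Markers of macrophages moved with genotype in the same direction as these genes. Of the 10 monocyte and macrophage markers, 6 rose in KO livers on HFCF and 8 on chow. Of the 6 Kupffer cell markers 5 rose on HFCF and 2 on chow. Over all tested genes 10.6% rose on HFCF and 9.72% on chow. The monocyte and macrophage sum was 579 to 659 CPM in KO HFCF livers and 234 to 466 CPM in WT HFCF livers, and 448 to 486 CPM in KO chow livers and 216 to 270 CPM in WT chow livers. No marker of these lists was at 0 in any liver. The neutrophil sum, of the 3 of 8 markers analysed, was 5.1 to 6.47 CPM in KO HFCF livers and 2.06 to 3.7 CPM in WT HFCF livers, and 4.93 to 6.69 CPM in KO chow livers and 2.62 to 3.36 CPM in WT chow livers. The T and NK cell sum, of the 4 of 5 markers in the table, was 2.87 to 5.8 CPM in KO HFCF and 0.838 to 1.48 CPM in WT HFCF livers. It was 1.93 to 5.8 CPM in KO chow and 0.425 to 1.5 CPM in WT chow livers. In WT chow replicate 2 and WT HFCF replicates 1 and 2, 1 of these markers was at 0. Of the 3 tested, 3 rose on HFCF and 1 on chow. B cell markers summed to 4.39 to 5.74 CPM in KO HFCF and 2.51 to 3.48 CPM in WT HFCF livers, and to 7.64 to 10.1 CPM in KO chow and 2.62 to 4.08 CPM in WT chow livers, and 4 of 4 rose on chow and 0 on HFCF. Cholangiocyte markers summed to 49.2 to 71.3 CPM in KO HFCF and 50.3 to 94.3 CPM in WT HFCF livers, and to 57.7 to 95.3 CPM in KO chow and 30.2 to 45 CPM in WT chow livers. Stellate cell markers summed to 523 to 628 CPM in KO HFCF and 574 to 611 CPM in WT HFCF livers, and to 591 to 621 CPM in KO chow and 479 to 581 CPM in WT chow livers. Both sums thus lay apart on chow and overlapped on HFCF, and of 5 genes in each list 1 rose on chow, Spp1 and Col1a1. The sinusoidal endothelial sum was 470 to 500 CPM in KO HFCF and 461 to 508 CPM in WT HFCF livers, and 479 to 507 CPM in KO chow and 475 to 490 CPM in WT chow livers, with all 4 ranges overlapping. Within that list Clec4g rose (0.35 ± 0.08) and Lyve1 (-0.48 ± 0.15) and Oit3 (-0.27 ± 0.08) fell in KO livers on HFCF, and 0 of 7 were called on chow. The part of these cell types in the rises of Tlr2, Nfkb1 and Tnfaip3 was not tested.

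**Figure D4:**
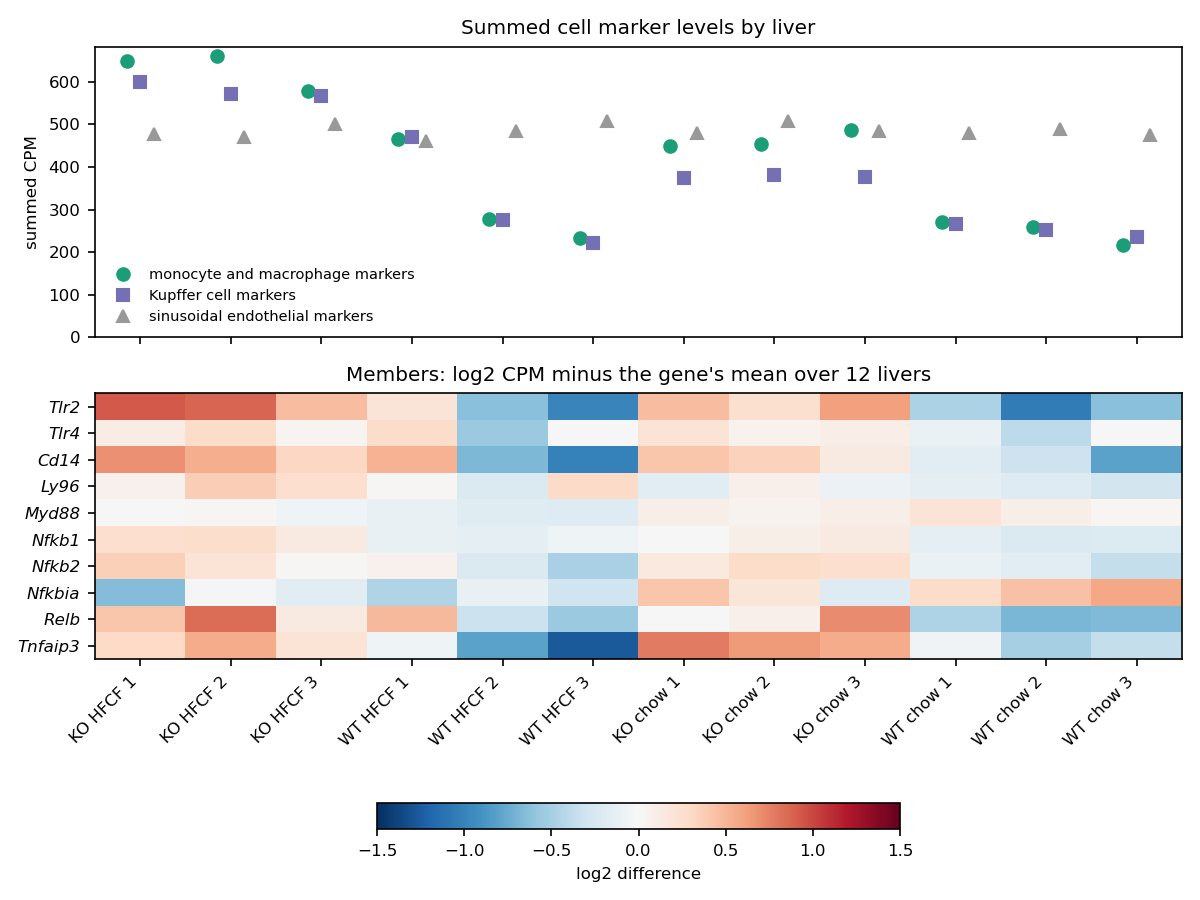
Top, summed CPM of 3 marker lists in each of the 12 livers (linear axis from 0); bottom, log2 CPM of each gene minus its mean over the 12 livers, from blue (lower) to red (higher). WT HFCF replicate 1 stands at 466 CPM for monocyte and macrophage markers, against 278 and 234 CPM in the other WT HFCF livers, and its Tlr2, Cd14 and Relb cells are red where theirs are blue.

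HFCF was then compared with chow within each genotype, which shows how the diet moved the same genes. In WT livers Nfkbia and Myd88 fell on HFCF and no gene of the 10 rose, where 5.9% of all tested genes fell and 7.76% rose. Nfkbia averaged 49.2 ± 5.72 CPM in WT HFCF livers and 80.9 ± 8.79 CPM in WT chow livers, and the groups did not overlap. Its log2 fold change was -0.72 ± 0.17 (edgeR adjusted p = 0.0116), or 0.607-fold. The call held in 19 of 20 alternatives and was lost without WT chow replicate 3 (edgeR adjusted p = 0.0534). Myd88 averaged 13.9 ± 0.42 CPM in WT HFCF livers and 16.8 ± 1.08 CPM in WT chow livers, and its log2 fold change was -0.27 ± 0.08 (edgeR adjusted p = 0.042). That call held in 4 of 20 alternatives, and in the 12 fits that each left out a library the adjusted p was 0.0516 to 0.183. These 2 were also the only genes of the 10 whose WT HFCF livers lay wholly below the WT chow livers, which held for 15.3% of all tested genes.

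The other 8 genes were not called for the diet in WT livers, with log2 fold changes from -0.33 ± 0.24 for Tnfaip3 (edgeR adjusted p = 0.408) to 0.59 ± 0.32 for Relb (edgeR adjusted p = 0.249). Without WT HFCF replicate 1, Tnfaip3 fell by 0.75 ± 0.20 on the log2 scale in WT HFCF livers (edgeR adjusted p = 0.0314), Nfkbia fell by 0.64 ± 0.18 (edgeR adjusted p = 0.0448) and Myd88 was not called (edgeR adjusted p = 0.0644). In that fit 8.73% of all tested genes were called. In the same fit Tlr2 (-0.11 ± 0.24), Tlr4 (-0.09 ± 0.17), Cd14 (-0.47 ± 0.27) and Nfkb2 (-0.15 ± 0.15) had negative log2 fold changes, against 0.34 ± 0.28, 0.12 ± 0.18, 0.20 ± 0.35 and 0.01 ± 0.15 with all livers, and none was called in either. The remaining 3 were not called without that liver either, at 0.28 ± 0.22 for Ly96, 0.08 ± 0.08 for Nfkb1 and 0.17 ± 0.31 for Relb, against 0.27 ± 0.19, 0.08 ± 0.07 and 0.59 ± 0.32 with all livers.

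In KO livers no gene of the 10 was called between HFCF and chow by edgeR, DESeq2 or limma voom, and 1 had an unadjusted edgeR p under 0.05. Over all tested genes, 2.65% were called in this comparison. That gene was Nfkbia, at 50 ± 10.6 CPM in KO HFCF livers and 66.7 ± 13.8 CPM in KO chow livers, with overlapping groups and a log2 fold change of -0.42 ± 0.17 (95% interval -0.77 to -0.06, edgeR adjusted p = 0.2). Tnfaip3 was 9.94 ± 1.31 CPM in KO HFCF livers and 12.3 ± 0.982 CPM in KO chow livers, and Myd88 was 15.3 ± 0.447 CPM in KO HFCF livers and 16.3 ± 0.227 CPM in KO chow livers. For these 2 genes every KO HFCF liver lay below every KO chow liver, as for 11.3% of all tested genes. For Tnfaip3 this was a near tie, with KO HFCF replicate 2 and KO chow replicate 3 both at 11.4 CPM. Nfkb1 was 34.3 ± 1.64 CPM in KO HFCF livers and 31 ± 1.56 CPM in KO chow livers. It was the 1 gene of the 10 whose HFCF livers all lay above, as for 13.1% of all tested genes. Here too the gap was small, from 32.5 CPM in KO HFCF replicate 3 to 32.4 CPM in KO chow replicate 3. The log2 fold changes were -0.31 ± 0.22 for Tnfaip3 (edgeR adjusted p = 0.489), -0.09 ± 0.08 for Myd88 (edgeR adjusted p = 0.593) and 0.15 ± 0.07 for Nfkb1 (edgeR adjusted p = 0.306).

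Whether the genotype effect differed between the diets was tested as the interaction. No gene of the 10 was called by edgeR, DESeq2 or limma voom, and 0 had an unadjusted edgeR p under 0.05, where 0.794% of all tested genes were called and 0.373% were called upward. The adjusted p ran from 0.549 for Myd88 to 0.997 for Cd14. For Tlr2 the interaction was -0.02 ± 0.36 on the log2 scale, with a 95% interval of -0.80 to 0.76, and for Tnfaip3 it was 0.02 ± 0.32, with an interval of -0.67 to 0.70. For Nfkb1, whose livers varied little, it was 0.07 ± 0.10, with an interval of -0.15 to 0.28. For Nfkbia it was 0.30 ± 0.23, with an interval of -0.20 to 0.80, so the difference of its diet effect between the genotypes did not pass the test (edgeR adjusted p = 0.636). For the other 6 genes it ran from -0.40 ± 0.42 for Relb to 0.18 ± 0.12 for Myd88. None was called without WT HFCF replicate 1 either (lowest edgeR adjusted p = 0.392, for Cd14), where 0.616% of all tested genes were called, but several values were larger. In that fit the interaction was 0.69 ± 0.33 for Cd14 (95% interval -0.01 to 1.39), 0.44 ± 0.24 for Tnfaip3 (-0.09 to 0.96) and 0.42 ± 0.29 for Tlr2 (-0.21 to 1.05). It was 0.23 ± 0.24 for Nfkbia, 0.21 ± 0.12 for Myd88, 0.12 ± 0.20 for Nfkb2 and 0.11 ± 0.23 for Tlr4, and 0.06 ± 0.11 for Nfkb1, 0.03 ± 0.30 for Ly96 and 0.01 ± 0.39 for Relb.

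Beyond the group means, several of the 10 genes deviated together from liver to liver. Over the 12 livers, the deviations of log2 CPM from the group means correlated at r = 0.887 for Tlr2 and Tnfaip3, 0.878 for Cd14 and Nfkb2, 0.876 for Cd14 and Tnfaip3 and 0.837 for Tlr2 and Relb. Nfkbia deviated the other way from most of the 10 genes, with r from -0.578 against Nfkb1 and -0.523 against Nfkb2 to 0.074 against Ly96. It was -0.403 against Relb and -0.379 against Tlr2. These values are descriptions over 12 libraries that share their scaling, and WT HFCF replicate 1 carries large deviations in several of them. Over the same libraries, now with the group differences included, the 2 genes most like each member were found among 11373 genes by Pearson's r of log2 CPM. For Tlr2 they were Plcg2 (0.983), a phospholipase of immune receptor signalling, and Ptprc (0.979), which encodes the leukocyte surface protein CD45. For Nfkb1 they were Rnf213 (0.977) and Herc6 (0.974), both known as interferon-inducible. For Tnfaip3 they were Aim2 (0.959), a DNA sensor, and Sla (0.951). For Nfkb2 they were the adhesion molecule Vcam1 (0.957) and Pgm1 (0.952). For Cd14 they were Slc36a4 (0.956) and Gp49a (0.954), and for Relb they were Snx10 (0.954) and Mppe1 (0.951). For Nfkbia they were Prkaa1 (0.949) and Prkar1a (0.938), which encode subunits of AMP-activated and cyclic AMP-dependent protein kinase. The remaining genes had lower maxima: 0.939 for Tlr4 with Map4k1, 0.908 for Myd88 with SNORA73 and 0.904 for Ly96 with Pik3r4.

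The rest of the pathway was described with 8 lists of 102 genes, of which 95 were in the table and 91 were tested. On HFCF 33 of the 91 rose in KO livers and 3 fell, and their median log2 fold change was 0.40, against 0.02 for all tested genes. On chow 29 rose and 3 fell, and the median was 0.29. The shares that rose were 36.3% on HFCF and 31.9% on chow, beside 10.6% and 9.72% of all tested genes. Of all tested genes 8.52% fell on HFCF and 5.82% on chow. The counts of each list below stand beside these same shares of all tested genes. Without WT HFCF replicate 1, 36 of 93 rose and 3 fell on HFCF, and 33 rose and 4 fell on chow. Of the 28 pathway genes chosen for naming on HFCF, 26 were still called without that liver, with log2 fold changes 0.886 to 1.42 times those of all livers, and Tirap (edgeR adjusted p = 0.0641) and Map3k14 (edgeR adjusted p = 0.0646) were not. Of the 12 named for the diet in WT livers 8 were still called, and Tab2, Ccl2, Hsp90b1 and Ltbr were not. Without WT chow replicate 3, 20 of 94 rose and 1 fell on chow, against 29 of 91 and 3 with all livers. For the diet, 3 rose and 1 fell in KO livers, and 7 rose and 5 fell in WT livers, shares of 3.3% and 7.69% that rose, beside 1.47% and 7.76% of all tested genes.

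**Figure D5:**
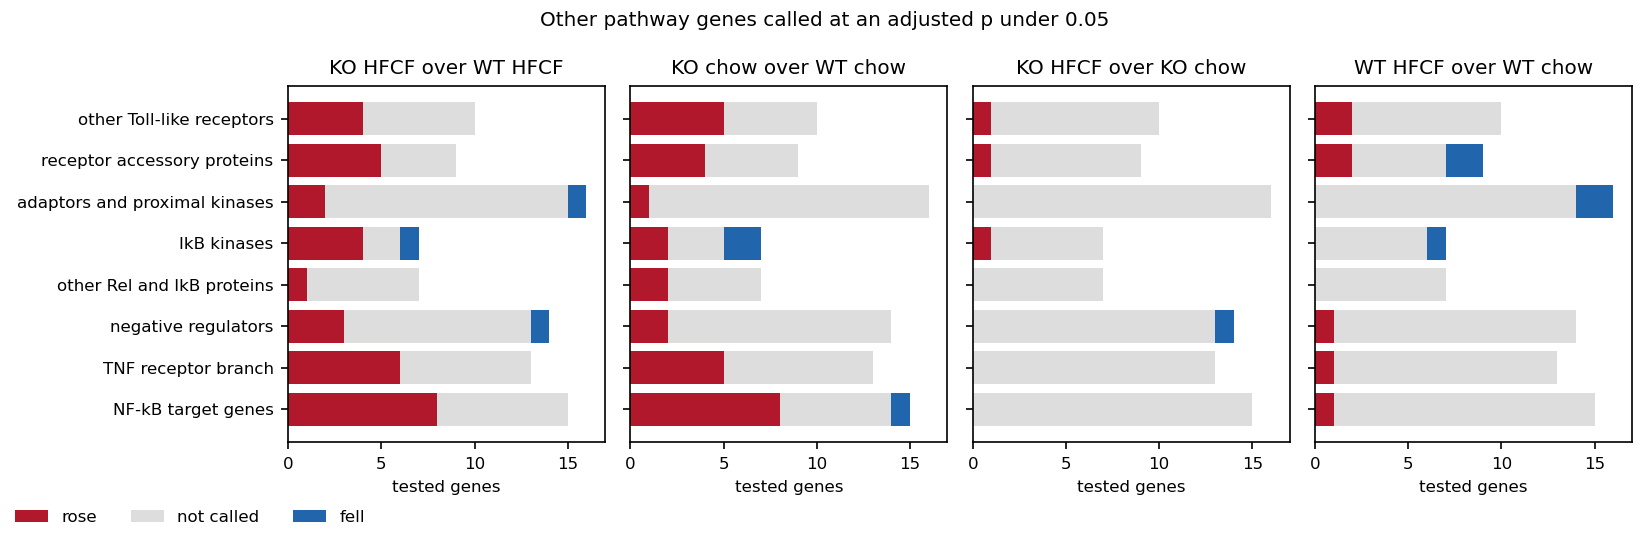
Number of tested genes (horizontal axes) in each of 8 pathway lists that rose, fell or were not called at an adjusted p under 0.05, in the 4 comparisons named above the panels. The NF-kB target genes have 8 of 15 that rose in each genotype panel and the adaptors and proximal kinases 2 of 16 on HFCF and 1 of 16 on chow.

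Among the other Toll-like receptors 4 of 10 rose in KO livers on HFCF, 5 of 10 rose on chow, and none of them fell. Tlr13, a receptor for bacterial ribosomal RNA in mice, was 9.52, 9.93 and 8.27 CPM in KO HFCF livers and 6.14, 3.89 and 2.71 CPM in WT HFCF livers, and 8.08, 8.49 and 7.75 CPM in KO chow livers and 4.36, 3.75 and 2.97 CPM in WT chow livers. All 6 KO livers lay above all 6 WT livers, and the log2 fold change was 1.10 ± 0.22 on HFCF (edgeR adjusted p = 0.00363) and 1.13 ± 0.23 on chow (edgeR adjusted p = 0.00575). The endosomal RNA receptors Tlr8 (1.11 ± 0.23), Tlr3 (0.86 ± 0.17) and Tlr7 (0.69 ± 0.20) were the other 3 that rose on HFCF. On chow Tlr1, which pairs with TLR2, rose by 2.06 ± 0.42 and the DNA receptor Tlr9 by 2.21 ± 0.45, from low counts: Tlr9 had 38 counts over the KO chow livers and 7 over the WT chow livers. For the diet, Tlr5 and Tlr12 were called among these receptors. Tlr5, the flagellin receptor, was 20.2, 14.3 and 14.5 CPM in WT HFCF livers and 7.44, 7.57 and 9.2 CPM in WT chow livers (1.02 ± 0.17, edgeR adjusted p = 0.00184), and Tlr12, which with TLR11 senses parasite profilin in mice, rose on HFCF in WT (1.36 ± 0.19) and in KO livers (0.83 ± 0.19). Leaving out 1 library ended the call of Tlr12 in KO livers in 5 of 12 fits (highest adjusted p = 0.146), of Tlr7 on HFCF in 4 (0.108) and of Tlr8 on chow without WT chow replicate 3 (0.0528).

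Among the receptor accessory proteins 5 of 9 rose in KO livers on HFCF and 4 of 9 on chow, and none fell. Lbp, the plasma protein that transfers lipopolysaccharide to CD14, was 149, 141 and 168 CPM in KO HFCF livers and 89, 89.4 and 87.4 CPM in WT HFCF livers, and 135, 191 and 131 CPM in KO chow livers and 165, 139 and 154 CPM in WT chow livers. The WT HFCF livers were the low group, and the other 3 overlapped. Lbp rose in KO livers on HFCF (0.78 ± 0.13, edgeR adjusted p = 0.000785) and fell by 0.78 ± 0.13 on HFCF in WT livers (edgeR adjusted p = 0.00142). On chow the Lbp genotype effect was -0.003 ± 0.125 (edgeR adjusted p = 0.99). For the interaction 1 of the 9 was called, Hsp90b1, where 0.794% of all tested genes were called. The difference of the Lbp genotype effect between the diets therefore did not pass the test, which does not show the effects to be equal. Cd180, a Toll-like receptor homologue, and Scarb1, a scavenger receptor for high-density lipoprotein, rose in KO livers on both diets, Cd180 by 0.65 ± 0.17 on HFCF and 1.23 ± 0.19 on chow, and Scarb1 by 0.82 ± 0.09 on HFCF and 0.60 ± 0.09 on chow. The Cd180 call on HFCF was lost without WT HFCF replicate 2 or KO HFCF replicate 3 (highest adjusted p = 0.07).

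Of the adaptors and proximal kinases 2 of 16 rose and 1 fell in KO livers on HFCF, and 1 rose on chow. The counts that rose were near the 10.6% on HFCF and 9.72% on chow of all tested genes. Those that rose on HFCF were Tab1 (0.67 ± 0.17) and the MYD88 partner Tirap (0.58 ± 0.16). Map3k7, the kinase TAK1, fell by 0.23 ± 0.07 on HFCF, and Traf3 rose by 0.51 ± 0.14 on chow. Of the 7 IkB kinases and their upstream kinases, 4 rose and 1 fell on HFCF, and 2 rose and 2 fell on chow. Ikbke, a noncanonical IkB kinase, rose by 1.14 ± 0.16 on HFCF (edgeR adjusted p = 0.000292) and 0.69 ± 0.17 on chow. Map3k14, the kinase NIK that starts p100 processing, rose by 0.49 ± 0.14 on HFCF and 0.96 ± 0.15 on chow (edgeR adjusted p = 0.000811). Chuk, the kinase IKK-alpha, fell by 0.30 ± 0.09 on HFCF and 0.34 ± 0.09 on chow, and Ikbkg, the scaffold NEMO, fell by 0.31 ± 0.09 on chow. Ikbkg also fell by 0.71 ± 0.09 on HFCF in WT livers (edgeR adjusted p = 0.000326). Many of these calls were close to the threshold. Of the 12 fits that each left out a library, 4 ended the HFCF calls of Tirap (highest adjusted p = 0.162), Map3k7 (0.102) and Chuk (0.0929), 3 that of Map3k14 (0.127) and 2 that of Tab1 (0.0568). On chow, 5 ended the calls of Traf3 (0.112) and Ikbkg (0.107) and 2 those of Chuk (0.115) and Ikbke (0.0701). The Ikbke call on HFCF, the Map3k14 call on chow and the Ikbkg call for the diet in WT held in all 12.

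Of the 7 other Rel and IkB proteins, 1 rose on HFCF and 2 on chow, beside 10.6% and 9.72% of all tested genes. Nfkbid, an atypical nuclear IkB, rose by 1.98 ± 0.36 on HFCF (edgeR adjusted p = 0.00177) and 1.67 ± 0.39 on chow (edgeR adjusted p = 0.0116), with 62 counts over the KO HFCF livers and 16 over the WT HFCF livers. Nfkbie rose by 0.88 ± 0.22 on chow, a call lost without WT chow replicate 2 or 3 or KO chow replicate 1 (highest adjusted p = 0.0826). Of 14 tested negative regulators, 3 rose and 1 fell on HFCF and 2 rose on chow. The same shares of all tested genes stand beside these counts. Tnip1, which binds A20, rose on both diets (0.54 ± 0.12 on HFCF and 0.61 ± 0.12 on chow), as did Trim30a (1.06 ± 0.13 and 1.20 ± 0.14), and the deubiquitinase gene Otud7b fell by 0.61 ± 0.10 on HFCF.

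In the TNF receptor branch 6 of 13 tested genes rose in KO livers on HFCF and 5 on chow, and none fell. Tnf itself had 95 counts over the KO HFCF livers and 26 over the WT HFCF livers, and 65 over the KO chow livers and 7 over the WT chow livers, and it rose on both diets (1.93 ± 0.45, edgeR adjusted p = 0.00909, and 2.95 ± 0.62, edgeR adjusted p = 0.00709). Traf1, a TNF receptor adaptor, rose by 1.91 ± 0.33 on HFCF and 2.14 ± 0.38 on chow, and Cd40, a costimulatory receptor of the noncanonical branch, by 1.48 ± 0.35 and 1.83 ± 0.43. Their counts were low: over the WT chow livers Traf1 and Cd40 had 19 each, and over the WT HFCF livers 34 and 46. Among the NF-kB target genes 8 of 15 rose in KO livers on each diet, with 1 that fell on chow. Icam1, an adhesion molecule for leukocytes, was 27.7, 28.7 and 27.5 CPM in KO HFCF livers and 16.8, 11.2 and 8.57 CPM in WT HFCF livers, and 28.6, 26.7 and 24.8 CPM in KO chow livers and 11.7, 11.3 and 12.1 CPM in WT chow livers. The 6 KO livers lay in a narrow band well above the 6 WT livers, with a log2 fold change of 1.19 ± 0.17 on each diet (edgeR adjusted p = 0.000309 on HFCF and 0.000583 on chow). The chemokine gene Ccl2 rose by 3.15 ± 0.50 on chow, with 105 counts over the KO chow livers and 10 over the WT chow livers, and Ccl5 rose by 1.72 ± 0.40 on HFCF and 2.29 ± 0.46 on chow. Ccl5 was also low, with 25 counts over the WT HFCF livers and 13 over the WT chow livers.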

How the data were processed

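Total RNA from 12 livers was made into stranded, ribosome-depleted libraries, per the labels' protocols. The deposited table holds whole-number counts per Ensembl gene and, derived by the authors, FPKM values, per the file headers; per the submitters' processing notes the genome build was mm10. Aligner, counter, strand setting and annotation release are not given in the sources used here, so reads of overlapping or antisense genes cannot be told apart. FPKM served only to compare levels between genes. Start positions in the table count from 0, and 1 was added.

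Counts were filtered with filterByExpr (minimum count 10, minimum total 15), which removed 1110 genes, given TMM scaling factors and tested in edgeR 4.0.16 (quasi-likelihood, R 4.3.3) with a mean for each of 4 groups of 3 livers. A gene was called where its p, adjusted over 14736 genes by Benjamini-Hochberg, was under 0.05. P-values set the difference between group means against edgeR's estimate of the spread between these livers. The pipeline was tested on simulated counts. The alternatives changed the scaling (RLE, upper quartile), dropped the filter or tightened it (1 CPM in 6 libraries), added the replicate number as a block, used DESeq2 1.42.0, or limma voom 3.58.1, fitted only the compared groups, or left out a library. Applying them to the count of other pathway genes was chosen after seeing the data.

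All 10 genes were named in every comparison, and up to 4 called genes with the lowest adjusted p from each pathway list; some of those are not reported here. The genes and lists were chosen with earlier results of these data known. Markers and pathway genes outside the table were not analysed here. No library repeated another of its group: pairs had 11.2 to 34.4 times the chi-square that sampling noise gives, over genes with 20 counts or more. Figures used Python 3.11.15, pandas 2.3.3 and matplotlib 3.10.9.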

Additional observations from a re-analysis of the deposited data

Results flagged for a closer look

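Hsp90b1 encodes the endoplasmic reticulum chaperone that folds Toll-like receptors. Its genotype effect was called as different between the diets, close to the threshold. Of the 91 pathway genes it was the only 1 called, or 1.1%, beside 0.794% of all tested genes. It was 861, 1160 and 831 CPM in KO HFCF livers and 535, 583 and 661 CPM in WT HFCF livers, and 662, 743 and 771 CPM in KO chow livers and 931, 842 and 761 CPM in WT chow livers. The interaction was 0.898 on the log2 scale (edgeR adjusted p = 0.0457), with a rise in KO livers on HFCF (0.68 ± 0.13, edgeR adjusted p = 0.00273) and a fall of HFCF against chow in WT livers by 0.51 ± 0.13 (edgeR adjusted p = 0.0204). That diet call was lost in 4 of 12 fits that left out a library, namely WT chow replicate 1 or 2 or WT HFCF replicate 1 or 2 (highest edgeR adjusted p = 0.0926). The interaction call held in 7 of 19 alternatives, with an adjusted p from 0.000417 to 0.115, and among the fits that left out a library it held only without WT HFCF replicate 3 (edgeR adjusted p = 0.0372).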

How the results depend on the processing

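Fitting the compared groups alone called 6 of the 10 genes between genotypes on chow, against 3. For the diet in WT, 1 of the 10 was called with upper quartile scaling, the replicate block, DESeq2 or the compared groups alone, against 2. Over all tested genes, the diet in KO called 653 with DESeq2 and 603 with the compared groups alone, against 390, and the interaction called 341 with DESeq2, against 117. Among the other pathway genes the interaction called 0 with the replicate block and 2 with DESeq2, against 1. The Tlr2 interaction, never called, turned to 0.006 with the replicate block and 0.017 with limma voom, from -0.023. The cause was not tested.

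Leaving out 1 library gave 2042 to 2834 genes for the genotype on HFCF (2814 with all), 1152 to 2788 on chow (2289), 157 to 776 for the diet in KO (390), 1100 to 2264 in WT (2013) and 11 to 136 for the interaction (117). Of the 10 genes it called 3 to 6, 1 to 6, 0 to 0, 0 to 2 and 0 to 0. On chow the count of 10 was 1 without WT chow replicate 3, 6 without WT HFCF replicate 1 and 5 without WT HFCF replicate 3. Of the other pathway genes it called 25 to 39 (36), 21 to 37 (32), 2 to 5 (4), 8 to 18 (12) and 0 to 1 (1). 

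Log2 values that changed sign, none of them called, ran from -0.077 to 0.009 for Myd88 between genotypes on chow. On HFCF they ran from -0.134 to 0.171 for Nfkbia and -0.007 to 0.394 for Tlr4. For the diet in KO they ran from -0.056 to 0.069 for Tlr4, -0.032 to 0.455 for Relb and -0.099 to 0.053 for Nfkb2. For the diet in WT they ran from -0.148 to 0.144 for Nfkb2, -0.106 to 0.574 for Tlr2, -0.088 to 0.314 for Tlr4 and -0.471 to 0.493 for Cd14. For the interaction they ran from -0.277 to 0.687 for Cd14, -0.072 to 0.188 for Ly96, -0.227 to 0.435 for Tnfaip3, -0.259 to 0.42 for Tlr2, -0.171 to 0.121 for Nfkb2, -0.293 to 0.108 for Tlr4 and -0.635 to 0.014 for Relb.

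Deviations of livers with the same replicate number correlated at -0.148 to 0.167, over 0.1 in 4 of 18 pairs. Those with unlike numbers correlated at -0.144 to 0.152. Between WT HFCF and WT chow the same-numbered values were 0.081, 0.167 and 0.108, and the unlike-numbered ones were all negative. Whether replicate numbers pair the livers is therefore not settled. With the number as a block, 4 of the 10 genes rose on HFCF, with Cd14 added (edgeR adjusted p = 0.0383), and 3 on chow. Counts of 20 or more per library for each of the 10 genes, lowest for Cd14, limit the precision of the low genes.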
